A study of Mus musculus with 6 samples.

Results

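The general transcription machinery that works with the TATA-binding protein (TBP) was represented on the arrays by 78 of the 6788 mouse genes that had a probe annotated with a single gene symbol. The members were taken by symbol, without use of any measured value: all Taf, Gtf2, Gtf3, Polr1, Polr2, Polr3, Med, Brf and Supt genes plus Ercc2 and Ercc3, leaving out Tbp itself. They comprised 11 TBP-associated factors (TAFs), 20 general transcription factors, 21 RNA polymerase subunits, 21 Mediator subunits and 5 Supt genes, read by 99 of the 15600 cDNA clones. Members without a named probe, such as Btaf1, were not analysed here.

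The cells were Neuro-2a, a mouse neuroblastoma line, collected 60 h after transient transfection. The 59Q cells received human TBP with a CAG repeat of length 59 fused to GFP (59Q TBPGFP), and the reference N3 cells received the pEGFP-N3 vector, which makes GFP alone. RNA of both was compared on 6 2-colour cDNA arrays. The 59Q RNA was labelled with Cy5 for 4 of them (replicates 1, 3, 4 and 6) and with Cy3 for the other 2 (replicates 2 and 5). Both groups kept their own mouse Tbp gene, not every cell of a culture took up plasmid, and the values average over all cells, so that fewer cells with a transcript and less transcript per cell cannot be told apart. Cells with a TBP of normal repeat length were not analysed here, so the long repeat and the added TBP cannot be told apart on these arrays. The methods describe 6 replicates from cultures grown in separate batches, whereas the series text gives 4 biological replicates plus dye-swapped arrays without naming the pairs. Some of the 6 arrays may therefore share RNA, the batches are not assigned to arrays, and the p-values measure only the spread between arrays.

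Each value is the deposited Z-ratio, the difference between the standardised log intensities of the 2 RNAs divided by the spread of such differences, which has a standard deviation of 1 over the spots of each array. It has no fold scale. The methods treat 59Q as the treated sample and N3 as the control, so that a value above 0 would mean more transcript in 59Q cells, but the direction was not stated array by array. Across clones, arrays of the same dye orientation correlated weakly and positively (Pearson r between 0.0504 and 0.341 over 7 pairs), whereas arrays of opposite orientation mostly correlated below 0 (r between -0.498 and 0.00182 over 8 pairs). Over the members alone these ranges were 0.00595 to 0.370 and -0.473 to -0.00969. The points of each correlation share probes and 2 arrays, and the values are a description. Because the sign across dyes is not settled, results are given as above or below 0, first as deposited and then after turning the sign of the 2 arrays with 59Q in Cy3 (the Cy5 over Cy3 reading). Z-ratios cannot show whether a gene was expressed, so the cell line was not checked by markers.

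TBP bends DNA at the TATA box and is used by all 3 nuclear RNA polymerases. With its TAFs it forms TFIID for RNA polymerase II, with another set of TAFs SL1 for RNA polymerase I, and with a Brf protein TFIIIB for RNA polymerase III. At polymerase II promoters TFIIA, TFIIB, TFIIE, TFIIF and TFIIH join TFIID, and the Mediator complex links this assembly to activators. Expansion of the glutamine repeat of human TBP is the cause of spinocerebellar ataxia type 17.

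The promoters of the members were first examined for the sequence that TBP is best known to bind. RefSeq promoter windows (GRCm38.p6, 250 bases before to 50 bases after the annotated start) were at hand for 70 of the 78 members, all matched by Entrez gene ID. TATAAA occurred on either strand in 9 of these 70 members (12.9%), against 4234 of all 27025 genes with a window (15.7%). On the forward strand, beginning 20 to 40 bases before the start, where a TATA box lies, it occurred in 2 members (2.86%) and in 2.41% of all genes. Those 2 members were Taf13, a histone-fold subunit of TFIID, and Polr2a, the catalytic subunit of RNA polymerase II. Their last 100 bases before the start are printed with TATAAA in capitals, followed by those of Taf5l, the member with the largest dye coefficient in this set, which has no TATAAA in this stretch (the lower-coordinate window of its 2).
Taf13, chr3:108571599-108571698, + strand: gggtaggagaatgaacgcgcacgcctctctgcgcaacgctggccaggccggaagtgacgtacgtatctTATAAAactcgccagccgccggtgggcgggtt
Polr2a, chr11:69758634-69758733, - strand: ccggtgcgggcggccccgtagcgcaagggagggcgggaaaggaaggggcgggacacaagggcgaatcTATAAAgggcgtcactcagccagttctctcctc
Taf5l, chr8:124021057-124021156, - strand: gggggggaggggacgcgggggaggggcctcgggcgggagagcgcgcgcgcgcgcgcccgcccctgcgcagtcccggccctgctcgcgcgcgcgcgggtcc
In the printed stretches the motif began 32 bases before the start in Taf13 and 33 bases before it in Polr2a. A match to these letters is a description and not evidence of binding.

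As deposited, no member stood apart from 0. Of the 78 members 72 had values on at least 4 arrays and entered limma's moderated test over 6463 genes, and 0 passed a Benjamini-Hochberg adjusted p of 0.05 in either direction, as did 0% of all genes higher and 0% lower. At an unadjusted p below 0.05 there were 0 members, against 169 genes (2.61%) over the whole array. The member nearest to that level was Med15 (limma unadjusted p = 0.0548, adjusted p = 0.999). Among the 57 members measured on all 6 arrays, 0 lay above 0 on every array and 0 below 0 on every array, against 0.467% and 1.12% of the 4926 genes measured on all 6. No member had a mean beyond the Z-ratio that the methods use as a threshold in either direction (0.263% of all genes did), and the 413 single values of tested members held 7 beyond it (1.69%, against 2.70% of all such values). The members varied between arrays about as much as other genes did, with a median standard deviation of 0.647, against 0.644 over all genes tested.

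**Figure D1:**
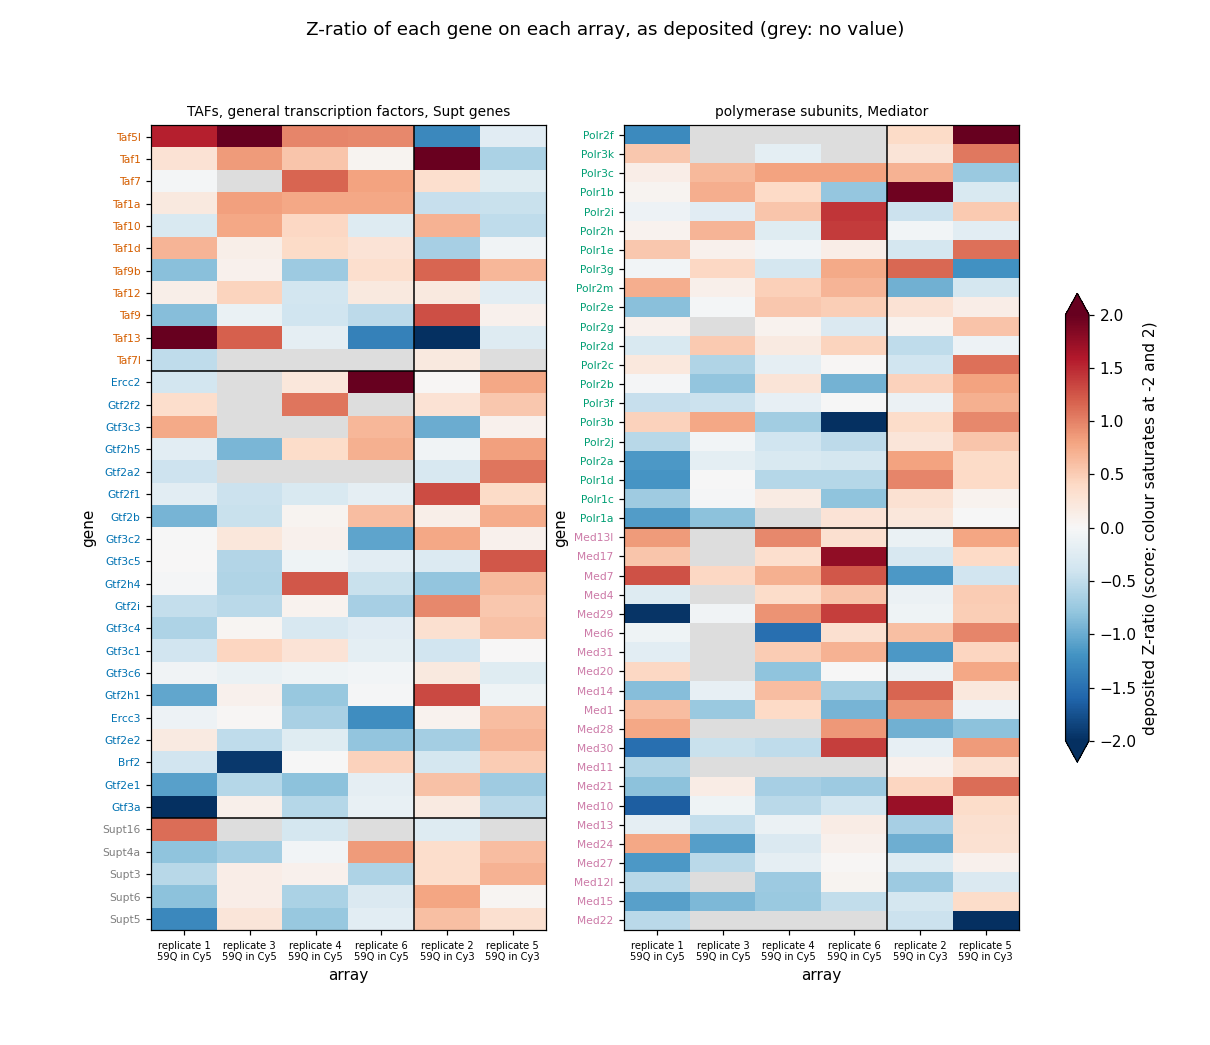
Deposited Z-ratio (colour, no unit, saturating at -2 and 2) of each of the 78 genes (rows, by class and then by mean) on each of the 6 arrays (columns, the 4 arrays with 59Q in Cy5 left of the line and the 2 with 59Q in Cy3 right of it), with grey for no value. Many rows change colour at the line, and no row measured on all 6 arrays keeps 1 colour across it.

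Means of 51 members, or 70.8% of the 72 tested, had opposite signs in the 2 dye orientations, against 66.2% of all genes. Of these 51, 35 were below 0 with 59Q in Cy5 and above 0 with 59Q in Cy3, and 16 the other way round. Over all 6463 genes these counts were 3020 and 1261, so the same direction was the commoner there. Another 14 members were above 0 in both orientations and 7 were below 0 in both, against 1048 and 1134 of all genes. In a limma fit with dye orientation as a second term, 13 of the 72 members had a dye coefficient with an unadjusted p below 0.05 (18.1%, against 16.1% of all genes), and none passed adjustment (smallest adjusted p = 0.189, Taf5l). With that term, 0 members reached an unadjusted p below 0.05 for 59Q against N3, against 2.79% of all genes. The share of members with such a dye coefficient was thus near that of the array as a whole. Because the sign across dyes is not settled, a dye effect and a difference between 59Q and N3 cannot be told apart in this coefficient.

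**Figure D2:**
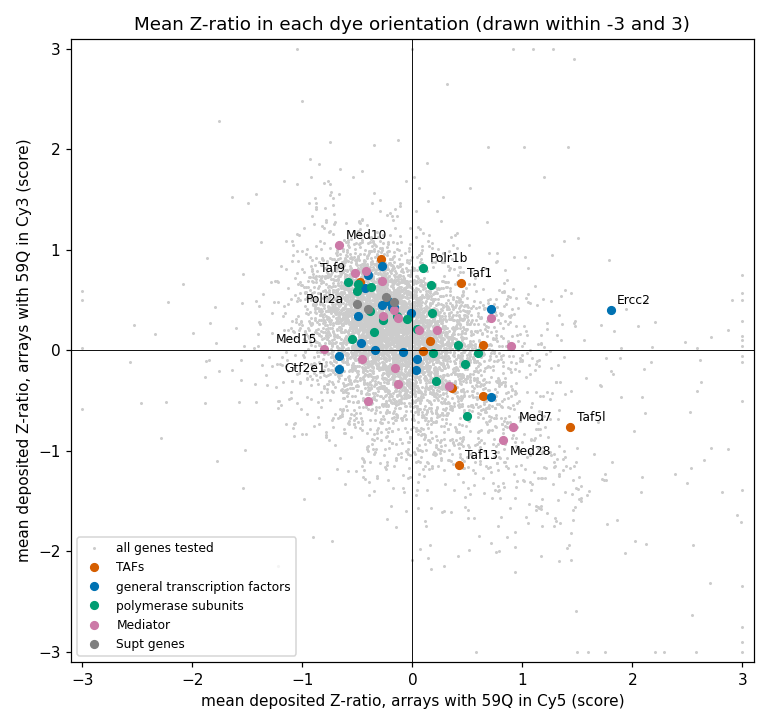
Mean deposited Z-ratio of each gene over the arrays with 59Q in Cy5 (x axis) against the mean over the arrays with 59Q in Cy3 (y axis), both in Z-ratio units, with the 72 tested members coloured by class over all 6463 genes in grey. Most members lie in the upper left or lower right quadrant, with Taf5l at the far lower right and Med10 at the upper left.

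As deposited, the TAFs had the highest class median and the Supt genes the lowest, an order that not every alternative kept. The median of the members' mean Z-ratios was 0.0235 (41 above 0 and 31 below), against -0.0449 over all genes, of which 43.1% were above 0. By class it was 0.129 for the TAFs (8 of 10 above 0), 0.0678 for polymerase subunits (12 of 20), 0.0230 for Mediator (10 of 19), -0.0206 for general transcription factors (9 of 19) and -0.0581 for Supt genes (2 of 4). In the Cy5 over Cy3 reading the median of all members was -0.208 (26 above 0 and 46 below), against -0.160 over all genes. Only the TAFs were then above 0 (0.219, 8 of 10), while the medians were -0.0457 for Mediator, -0.206 for polymerase subunits, -0.269 for general transcription factors and -0.373 for Supt genes (0 of 4 above 0). Within the TAFs, this median was 0.0683 for the 7 tested TFIID subunits (0.115 as deposited). It was 0.578 for the 3 TAFs of SAGA and polymerase I, Taf5l, Taf1a and Taf1d (0.277 as deposited). The polymerase subunits and Mediator thus had a median above 0 in one reading and below 0 in the other. Only the TAFs were above 0 in both, but the 2 readings share the 4 arrays whose sign was not turned. On those 4 arrays the TAF median was 0.393 (8 of 10 above 0), against -0.161 over all genes. On the other 2 arrays, as deposited, it was 0.0214 (5 of 10), against 0.159 over all genes, of which 62.9% were above 0. The 2 readings are therefore not independent results for the TAFs.

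Set against the median of all genes on the same array, the TAFs were above it on 5 of 6 arrays (difference 0.277 ± 0.474, SD) and below it on replicate 5. Polymerase subunits were above it on 6 of 6, by a small 0.121 ± 0.0598. Mediator and the general transcription factors were above it on 2 of 6 each, and the Supt genes on 3 of 6. With the sign of the arrays with 59Q in Cy3 turned, the TAFs would be above it on 5 of 6 arrays, with replicate 2 as the exception, and the polymerase subunits on 4 of 6. These differences are descriptions, with no test.

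**Figure D3:**
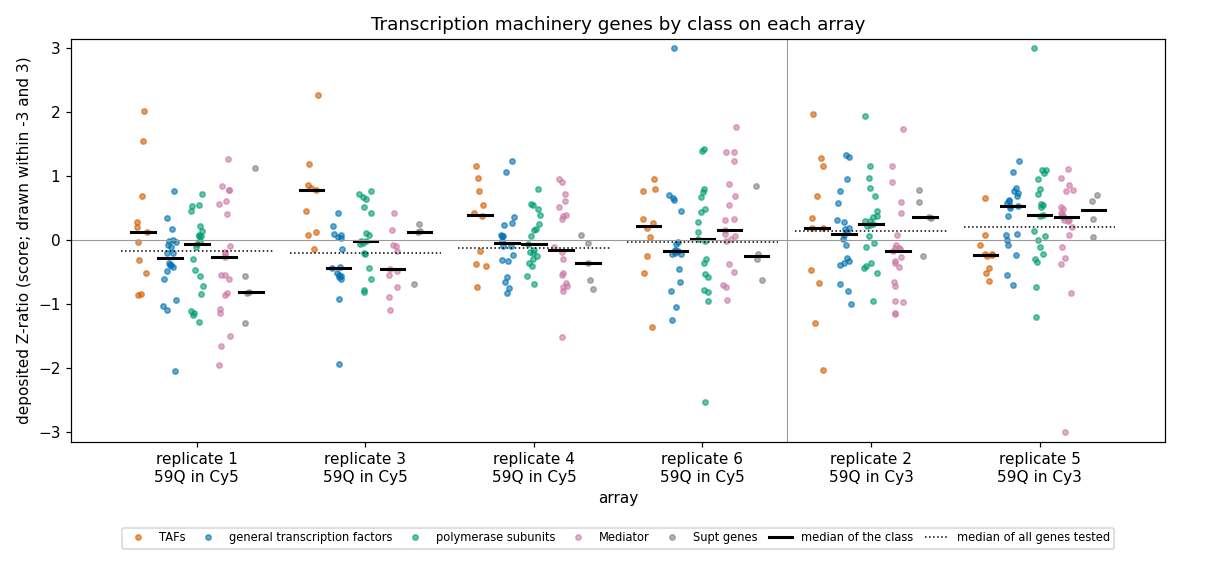
Deposited Z-ratio (y axis, drawn within -3 and 3) of every member on each array (x axis), coloured by class, with the class median as a black bar and the median of all tested genes as a dotted line. The TAF median is above the dotted line on every array but replicate 5, where it is -0.229 against 0.211 for all genes.

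Among the TAFs, Taf5l differed most between the dye orientations. Values follow in the order of replicates 1, 3, 4 and 6 for 59Q in Cy5 and of replicates 2 and 5 for 59Q in Cy3. Taf5l, a WD40 protein of the SAGA histone acetyltransferase complex, had Z-ratios of 1.55, 2.27, 0.969 and 0.956 with 59Q in Cy5 and -1.30 and -0.222 with 59Q in Cy3. All 4 values of one orientation were thus at 0.956 or more and both of the other were below it, and the value on replicate 3 was the highest of any member there. Its mean was 0.705 ± 1.28 (SD, n = 6), with an exact 2-sided sign-flip permutation p of 0.25 and a limma unadjusted p of 0.112. Taking Cy5 over Cy3, it was above 0 on 6 of 6 arrays with a mean of 1.21 ± 0.684 (SD, n = 6), the largest of any tested member in that reading (limma unadjusted p = 0.000958, adjusted p = 0.0841), and its exact permutation p was 0.03125, below which 6 arrays cannot go. Its dye coefficient was 1.10 (limma unadjusted p = 0.00283). Taf5l was read by 1 clone.

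Taf1a and Taf1d, both subunits of the SL1 complex that serves RNA polymerase I, had the same signs as Taf5l on every array. Taf1a measured 0.201, 0.823, 0.773 and 0.768 with 59Q in Cy5 and -0.465 and -0.439 with 59Q in Cy3, and Taf1d 0.685, 0.125, 0.380 and 0.268 with 59Q in Cy5 and -0.667 and -0.0742 with 59Q in Cy3. Each was above 0 on all 4 arrays of the first orientation and below 0 on both of the second. The 3 arrays with the same dye and channel layout (replicates 3, 4 and 6) gave Taf1a a mean of 0.788 ± 0.0303 (SD, n = 3), one of the tightest of the set. Taf1d, however, is the mean of 4 clones that did not run together: one ran 2.38, 0.891, 0.688, 0.709 in Cy5 and -2.86, -1.17 in Cy3, whereas another ran 0.407, -0.791, -0.637, -0.750 in Cy5 and -0.208, 1.32 in Cy3.

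Among the TFIID subunits, Taf1, the largest TAF and the scaffold of the complex, had 0.281, 0.857, 0.557 and 0.0556 with 59Q in Cy5 and 1.98 and -0.635 with 59Q in Cy3. It was above 0 on 5 of 6 arrays, with a mean of 0.516 ± 0.878 (SD, n = 6) (exact permutation p = 0.219), which was 0.223 without replicate 2. Taf7, which binds Taf1, measured -0.0352, 1.16 and 0.803 with 59Q in Cy5 (replicates 1, 4 and 6) and 0.342 and -0.237 with 59Q in Cy3, and 3 of its 5 values were above 0. Taf9, a histone-fold subunit shared by TFIID and SAGA, ran opposite to Taf5l, at -0.851, -0.137, -0.401 and -0.519 with 59Q in Cy5 and 1.28 and 0.0851 with 59Q in Cy3. Every value was below 0 in the first orientation and above 0 in the second, so that in the Cy5 over Cy3 reading it was below 0 on 6 of 6 arrays (mean -0.546 ± 0.456 (SD, n = 6), limma unadjusted p = 0.0268, adjusted p = 0.206). Its 2 clones had opposite signs on 3 of the 6 arrays, replicates 3, 4 and 5.

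Taf9b, the close paralogue of Taf9, had -0.837, 0.0887, -0.725 and 0.339 with 59Q in Cy5 and 1.16 and 0.662 with 59Q in Cy3, which differed in sign from Taf9 on replicates 3 and 6. Cross-hybridisation between such paralogues on cDNA probes cannot be separated here. Taf13, one of the 2 members with TATAAA at the usual place, had the widest spread of the TAFs: 2.02, 1.20, -0.172 and -1.36 with 59Q in Cy5 and -2.04 and -0.251 with 59Q in Cy3. Values of both signs were found within the same orientation. Taf10 and Taf12, histone-fold subunits shared with SAGA, stayed between -0.508 and 0.779 and between -0.371 and 0.452 as gene means. Their clones spread more widely. Those of Taf10 lay at 0.306 and -1.32 on replicate 5, and those of Taf12 shared a sign on 1 of the 5 arrays that measured both. Taf7l, the testis paralogue of Taf7, was measured on 2 arrays and not tested.

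For the polymerase II general transcription factors the values crossed 0 in most genes. Gtf2b (TFIIB), which contacts TBP directly, had -0.930, -0.438, 0.0602 and 0.622 with 59Q in Cy5 and 0.123 and 0.741 with 59Q in Cy3, with a mean of 0.0296 ± 0.634 (SD, n = 6). Its values straddled 0 on arrays of the same orientation. Gtf2a2, the small subunit of TFIIA that also contacts TBP, was measured on 3 arrays, at -0.415 with 59Q in Cy5 (replicate 1) and -0.322 and 1.07 with 59Q in Cy3, and was not tested. Gtf2e1, the large subunit of TFIIE, was below 0 on 5 of 6 arrays, with -1.09, -0.563, -0.822 and -0.176 with 59Q in Cy5 and 0.584 and -0.706 with 59Q in Cy3 and a mean of -0.462 ± 0.595 (SD, n = 6) (exact permutation p = 0.125). Its partner Gtf2e2 was below 0 on 4 of 6, with a mean of -0.226 ± 0.566 (SD, n = 6). The 2 TFIIF subunits differed from each other: Gtf2f2 lay above 0 on all 4 arrays that measured it, at 0.355 and 1.07 with 59Q in Cy5 (replicates 1 and 4) and 0.283 and 0.534 with 59Q in Cy3 (exact permutation p = 0.125, the smallest that 4 arrays allow), whereas Gtf2f1 had -0.207, -0.425, -0.311 and -0.175 with 59Q in Cy5 and 1.30 and 0.382 with 59Q in Cy3. Gtf2f1 thus had 1 sign on 6 of 6 arrays in the Cy5 over Cy3 reading, averaging -0.467 ± 0.420 (SD, n = 6). This holds for the gene mean only. Its 2 clones had opposite signs on replicate 1 (-0.861 and 0.446) and on replicate 4 (0.173 and -0.795), and only 1 of them was measured on replicate 3.

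Gtf2i (TFII-I), a factor regulated by signalling rather than a core subunit, had a mean of -0.0206 ± 0.658 (SD, n = 6) as deposited, and of -0.518 ± 0.334 (SD, n = 6) when Cy5 is set over Cy3. Its 2 clones shared a sign on 2 of the 5 arrays that measured both. As deposited, one was above 0 on all 5, between 0.168 and 0.515, and the other ran from -1.54 to 1.75. Within TFIIH, the helicase and nucleotide excision repair complex, Ercc2 (XPD) had the highest mean of all members, 1.24 ± 2.43 (SD, n = 5), with -0.360, 0.232 and 5.53 with 59Q in Cy5 (replicates 1, 4 and 6) and 0.0225 and 0.777 with 59Q in Cy3. Replicate 6 alone carried it, and without that array the mean was 0.168. Ercc3 (XPB), the other TFIIH helicase, had -0.104, 0.0282, -0.649 and -1.24 with 59Q in Cy5 and 0.0762 and 0.613 with 59Q in Cy3 and a mean of -0.213 ± 0.646 (SD, n = 6). Its value on replicate 6 was the lowest of its 6, on the array where Ercc2 was highest. The means of Gtf2h1, Gtf2h4 and Gtf2h5 lay between -0.0813 and 0.114.

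The polymerase III factors had means between -0.504 and 0.126. Gtf3a (TFIIIA), the zinc-finger factor for 5S rRNA genes, was below 0 on 4 of 6 arrays, at -2.04, 0.102, -0.568 and -0.155 with 59Q in Cy5 and 0.181 and -0.542 with 59Q in Cy3. Its mean of -0.504 ± 0.817 (SD, n = 6), the lowest of the class, rested on replicate 1, and was -0.196 without it. Of the TFIIIC subunits, Gtf3c3 was measured on 4 arrays, at 0.762 and 0.660 with 59Q in Cy5 (replicates 1 and 6) and -0.9999 and 0.0802 with 59Q in Cy3. Gtf3c6 had the smallest spread of all tested members, with a mean of -0.0650 ± 0.144 (SD, n = 6), but its 3 clones lay at 1.03, -0.465 and -0.786 on replicate 1. Gtf3c1, Gtf3c2, Gtf3c4 and Gtf3c5 had means between -0.0452 and 0.0186. Brf2, a TFIIIB subunit for promoters of the U6 kind, averaged -0.284 ± 0.894 (SD, n = 6).

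RNA polymerase I subunits gave means on both sides of 0. Polr1b, the second largest subunit, had 0.0618, 0.723, 0.391 and -0.778 with 59Q in Cy5 and 1.94 and -0.301 with 59Q in Cy3, with a mean of 0.339 ± 0.942 (SD, n = 6), and 4 of the 6 were above 0. Without replicate 2 this mean was 0.0195. Polr1a, the largest, had -1.11, -0.817 and 0.281 with 59Q in Cy5 (replicates 1, 3 and 6) and 0.224 and -0.00220 with 59Q in Cy3 and a mean of -0.286 ± 0.639 (SD, n = 5), which was -0.0786 without replicate 1. In the Cy5 over Cy3 reading 0 of the 5 polymerase I members had a mean above 0, against 34.6% of all genes. Polr1c and Polr1e averaged -0.170 ± 0.473 (SD, n = 6) and 0.244 ± 0.512 (SD, n = 6) as deposited. Polr1d, which polymerases I and III share, had -1.18, -0.0109, -0.568 and -0.575 with 59Q in Cy5 and 0.971 and 0.397 with 59Q in Cy3, and was below 0 on 6 of 6 arrays in that reading (-0.616 ± 0.415 (SD, n = 6), limma unadjusted p = 0.0126, adjusted p = 0.165). Its 2 clones were of the same sign on every array but replicate 3.

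For RNA polymerase II, the catalytic subunit Polr2a measured -1.14, -0.199, -0.301 and -0.353 with 59Q in Cy5 and 0.812 and 0.375 with 59Q in Cy3. As with Taf9, each of the first 4 values was below 0 and each of the last 2 above it, giving -0.135 ± 0.671 (SD, n = 6) as deposited, and -0.531 ± 0.367 (SD, n = 6) when Cy5 is set over Cy3. Polr2j, a small subunit, had the same signs on every array, at -0.559, -0.0553, -0.397 and -0.522 with 59Q in Cy5 and 0.235 and 0.550 with 59Q in Cy3. The opposite signs were found for Polr2m, a protein that associates with polymerase II and is also known as Gdown1, at 0.726, 0.105, 0.481 and 0.679 with 59Q in Cy5 and -0.957 and -0.348 with 59Q in Cy3. Polr2i, another small subunit, had the largest mean of the polymerase II subunits tested, 0.293 ± 0.685 (SD, n = 6), from -0.101, -0.222, 0.562 and 1.42 with 59Q in Cy5 and -0.427 and 0.525 with 59Q in Cy3. Without replicate 6 it was 0.0673. Polr2b, the second largest subunit, averaged -0.0384 ± 0.694 (SD, n = 6) and differed in sign from Polr2a on replicate 4. Polr2c, Polr2d, Polr2e, Polr2g and Polr2h, further subunits, had means between 0.0240 and 0.273. Polr2f, a subunit common to all 3 polymerases, was measured on 3 arrays, with 3.76 on replicate 5, and was not tested.

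Among RNA polymerase III subunits, Polr3c was above 0 on 5 of 6 arrays, at 0.140, 0.643, 0.807 and 0.807 with 59Q in Cy5 and 0.688 and -0.737 with 59Q in Cy3, with a mean of 0.391 ± 0.606 (SD, n = 6). Its values with 59Q in Cy5 were all above 0, and its 2 values with 59Q in Cy3 had opposite signs. Polr3f lay below 0 on 5 of 6 arrays, at -0.466, -0.436, -0.158 and -0.0135 with 59Q in Cy5 and -0.111 and 0.717 with 59Q in Cy3, with a mean of -0.0778 ± 0.430 (SD, n = 6). Its 2 clones had opposite signs on replicates 2, 4 and 6. The lowest polymerase value, -2.54, was that of Polr3b on replicate 6. Polr3k, measured on 4 arrays, had the largest mean among polymerase subunits tested, 0.413 ± 0.520 (SD, n = 4), and Polr3g averaged 0.118 ± 0.845 (SD, n = 6).

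Mediator held the member closest to the test's threshold. Med15, a tail subunit that contacts activators, had -1.08, -0.895, -0.735 and -0.493 with 59Q in Cy5 and -0.354 and 0.372 with 59Q in Cy3, with a mean of -0.531 ± 0.514 (SD, n = 6) (exact permutation p = 0.0938). It was below 0 on 5 of 6 arrays as deposited, and again on 5 of 6 when Cy5 is set over Cy3, where replicate 2 took the place of replicate 5 as the exception. Its 2 clones differed by more than 1 Z-ratio unit on replicate 1, at -0.459 and -1.70, but both were below 0 on all 4 arrays with 59Q in Cy5. Med7, of the middle module, had 1.27, 0.421, 0.718 and 1.24 with 59Q in Cy5 and -1.15 and -0.376 with 59Q in Cy3, the same signs as Taf5l. Its mean was 0.355 ± 0.956 (SD, n = 6), and in the Cy5 over Cy3 reading 0.864 ± 0.412 (SD, n = 6) (limma unadjusted p = 0.00174, adjusted p = 0.0954).

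Med10, also of the middle module, ran the other way, at -1.65, -0.0861, -0.544 and -0.370 with 59Q in Cy5 and 1.73 and 0.370 with 59Q in Cy3, and had the lowest dye coefficient of the members, -0.857. Med28, a metazoan subunit measured on 4 arrays, had 0.781 and 0.872 with 59Q in Cy5 (replicates 1 and 6) and -0.957 and -0.820 with 59Q in Cy3. Within each orientation its 2 values were close, and between orientations they had opposite signs. Med13l, of the kinase module, was above 0 on 4 of the 5 arrays that measured it, at 0.853, 0.964 and 0.323 with 59Q in Cy5 (replicates 1, 4 and 6) and -0.138 and 0.787 with 59Q in Cy3, with a mean of 0.558 ± 0.459 (SD, n = 5) (limma unadjusted p = 0.0626). Its paralogue Med13 had a mean of -0.161 ± 0.368 (SD, n = 6), and Med12l, of the same module, -0.442 ± 0.333 (SD, n = 5). The means of these kinase module genes thus did not share a sign, and none of them passed the test. The 2 clones of Med13 had means of -0.336 and 0.170 and shared a sign on 1 of the 4 arrays that measured both. Med17, a head subunit, averaged 0.552 ± 0.764 (SD, n = 5). Med14, the scaffold, and Med1, which binds nuclear receptors, averaged 0.0438 ± 0.776 (SD, n = 6) and 0.0230 ± 0.745 (SD, n = 6). The 9 further tested Mediator subunits (Med4, Med6, Med20, Med21, Med24, Med27, Med29, Med30 and Med31) had means between -0.338 and 0.213. Med22 was measured on 3 arrays, all below 0 and with -3.32 on replicate 5, and Med11 on 3, so neither was tested.

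The Supt genes measured here code for elongation factors, a histone chaperone and a SAGA subunit. Supt5, the larger subunit of the elongation factor DSIF, had -1.29, 0.248, -0.761 and -0.209 with 59Q in Cy5 and 0.604 and 0.324 with 59Q in Cy3, with a mean of -0.180 ± 0.724 (SD, n = 6). Its partner Supt4a had -0.806, -0.678, -0.0471 and 0.845 with 59Q in Cy5 and 0.346 and 0.619 with 59Q in Cy3, with a mean of 0.0464 ± 0.680 (SD, n = 6). Supt6, an elongation factor, and Supt3, a SAGA subunit, averaged -0.132 ± 0.583 (SD, n = 6) and 0.0154 ± 0.518 (SD, n = 6). All 4 tested Supt genes averaged below 0 with 59Q in Cy5 and above 0 with 59Q in Cy3, the commonest pattern on the array (3020 of 6463 genes). Supt16, of the histone chaperone FACT, was measured on 3 arrays.

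**Figure D4:**
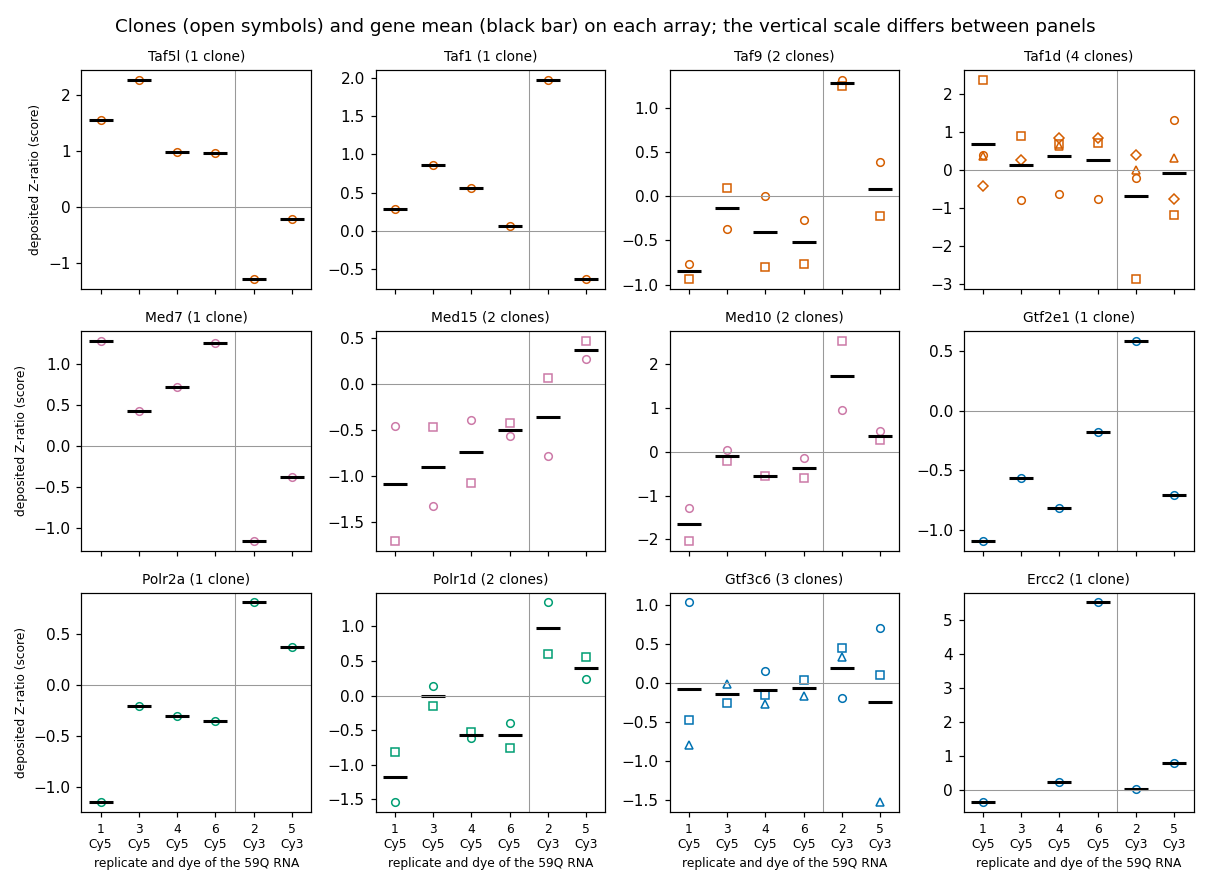
Deposited Z-ratio (y axis, with a scale of its own in each panel) of each clone (open symbols, 1 shape per clone) and of the gene mean (black bar) for 12 members on each array (x axis, the 4 arrays with 59Q in Cy5 left of the line and the 2 with 59Q in Cy3 right of it). Taf5l and Med7 are above 0 left of the line and below 0 right of it, Taf9 (gene mean) and Polr2a the reverse, Taf1d's 4 clones disagree, and Ercc2 stands at 5.53 on a single array.

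Taking Cy5 over Cy3, the counts of members at the lower thresholds grew together with those of all genes. An unadjusted limma p below 0.05 was found for 14 of 72 members (19.4%), against 19.8% of all genes. These were 5 above 0 (Taf5l, Taf1a, Med7, Med28 and Polr2m) and 9 below 0 (Taf9, Gtf2f1, Gtf2i, Polr1d, Polr2a, Polr2j, Med10, Med15 and Med21). After adjustment 0 members passed, against 0.263% of all genes above 0 and 0.0155% below 0. Of the 57 members on all 6 arrays, 5 were above 0 on every array (8.77%, against 5.01% of all genes), namely Taf5l, Taf1a, Taf1d, Med7 and Polr2m. A further 6 were below 0 on every array (10.5%, against 11.2%), namely Taf9, Gtf2f1, Med10, Polr1d, Polr2a and Polr2j. All of these are gene values, and the clones of a member did not always share their sign.

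The 3 arrays with the same dye and channel layout do not depend on the choice of reading, except for a common sign. On these, 8 of 57 members were above 0 on all 3 (14.0%, against 14.3% of all genes): Taf1, Taf1a, Taf1d, Taf5l, Med7, Polr2d, Polr2m and Polr3c. Another 12 were below 0 on all 3 (21.1%, against 25.0%), of which 5 were general transcription factors (Gtf2e1, Gtf2e2, Gtf2f1, Gtf3c5 and Gtf3c6), 4 polymerase subunits, 2 Mediator subunits and 1 a TAF. In a limma fit on these arrays 7 of 68 members (10.3%) had an unadjusted p below 0.05, against 10.7% of all genes, and the smallest adjusted p was 0.374, for Taf5l. Counts in either direction were close to those of the whole array.

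Where a member had more than 1 clone, its clones often disagreed. For 60 members 1 clone gave the value, and 18 members had more. Over the 25 pairs of clones of a member, 65 of 126 paired values had the same sign (51.6%), against 58.0% over all genes with more than 1 clone. Duplicate spots of the same clone had the same sign in 87.8% of values for the members and in 83.8% for all clones. The median difference between clones of a member was 0.678 Z-ratio units, about the standard deviation of a member between arrays. Different clones of a gene can cover different parts of its transcript, and which of them reads the gene best was not tested.

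A list of 46 other genes of the pathway also held no gene past adjustment. It includes cofactors of TBP, kinases of TFIIH and Mediator, elongation factors and SAGA subunits. Subunits of the snRNA-activating complex, a polymerase I activator and proteins that associate with polymerase II are also among the 46 genes. Of these 26 were measured and 25 tested, with 12 means above 0 and 13 below. Unadjusted limma p-values below 0.05 were found for 3 of the 25 (12%, against 2.61% of all genes and 0 members), all with means below 0. These were Nelfe, a subunit of the pausing factor NELF (mean -0.653), Rpap1, which associates with polymerase II (mean -0.610), and Ubtf, the polymerase I activator UBF (mean -0.668). When Cy5 is set over Cy3 there were 4 (16%, against 19.8% of all genes), again all below 0: Ccnh, the cyclin of TFIIH, Snapc2, a subunit of the snRNA-activating complex, Kat2b, an acetyltransferase of SAGA-type complexes, and again Ubtf. None passed adjustment in either reading. The median of the list was -0.0396 as deposited and -0.212 with those signs turned.

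The Tbp probe itself, whose gene product the plasmid supplies in its human form, had 2.92, -0.0977, 0.176 and 1.04 with 59Q in Cy5 and 2.31 and 1.74 with 59Q in Cy3. It was above 0 on 5 of 6 arrays, averaging 1.35 ± 1.19 (SD, n = 6) as deposited, which did not pass (limma adjusted p = 0.999), and -0.00150 when Cy5 is set over Cy3.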

How the data were processed

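The authors hybridised RNA of 59Q and N3 cells on 6 2-colour mouse cDNA arrays, scanned them with an Axon scanner, read spots in GenePix Pro and applied a Z score transformation. The deposited value of each spot is the resulting Z-ratio, a score with a mean of 0 and a standard deviation of 1 per array; intensities were not used here. From 19 to 11234 of the 31200 spots per array held no value, and the number of arrays limits the precision. Duplicate spots were averaged per clone and clones per gene, by annotated symbol. A minimum of 4 arrays left 6463 genes for limma (version 3.58.1, R 4.3.3; intercept, eBayes, Benjamini-Hochberg over all genes), and single members with exact 2-sided sign-flip permutation tests. A fit with dye orientation as a term, the Cy5 over Cy3 and channel 2 over channel 1 readings, subsets of arrays, single arrays left out and 12 possible flip-dye pairings were alternatives. The code was tested on simulated data. Values on every array are given for the members with the smallest p above and below 0 in each role class, those nearest to TBP and those at the extremes of mean and dye coefficient, and others were named after their values were seen. Members and lists were chosen with earlier results of these data known. Glutamine runs in the proteins were not analysed here.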

Additional observations from a re-analysis of the deposited data

Results flagged for a closer look

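In 4 of the 72 members tested for it, a single array lay far from the others by Dixon's criterion, where chance gives about 1 in 20, or 3.6. Ercc2 had 5.53 on replicate 6, with 0.777 as the nearest of its other values. Gtf3a had -2.04 on replicate 1, with -0.568 as the nearest. Brf2 had -1.93 on replicate 3, with -0.385 as the nearest. Gtf3c5 had 1.25 on replicate 5, with 0.00284 as the nearest. None of the 6 medians tested in the same way (5 classes and all members) stood apart.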

How the results depend on the processing

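No alternative, including the fit of 14418 single clones, brought a member past an adjusted p of 0.05. The count of members at an unadjusted p below 0.05, 0 as deposited, was 14 in the Cy5 over Cy3 reading (19.4%, against 19.8% of all genes), 1 in the channel 2 over channel 1 reading (1.39%, against 2.03%), 8 with the arrays with 59Q in Cy5 only (11.8%, against 14.5%), 7 with the 3 arrays of the same layout (10.3%, against 10.7%), 1 with array medians subtracted (1.39%, against 2.65%) and 1 with genes on at least 2 arrays (1.28%, against 2.42%). It ranged from 0 to 5 when an array was left out, with 5 without replicate 2 (7.35%, against 6.90%) and 3 without replicate 5 (4.41%, against 4.20%). Under the 12 possible flip-dye pairings, which leave 4 samples, it was 2, 3, 4, 5 or 6 (2.60% to 7.79%, against 2.85% to 6.40% of all genes), and the members' share was above that of all genes under 6 of them. Members of 1 sign on every array, 0 as deposited, numbered 11 in the Cy5 over Cy3 reading (19.3%, against 16.2%), 17 with the arrays with 59Q in Cy5 (29.8%, against 27.4%), 20 with the same layout (35.1%, against 39.3%), and 0 to 4 with an array left out (2 without replicate 2, 3.51% against 6.82%, and 4 without replicate 5, 7.02% against 6.02%), where fewer arrays have to share a sign. On the same-layout arrays 1 member, Ercc2, had a mean beyond the threshold of the methods (1.47%, against 1.42% of all genes). This mean of 2.88 came from 2 arrays, at 0.232 and 5.53. The median of all members was -0.208 and that of polymerase subunits -0.206 in the Cy5 over Cy3 reading. The other 166 summary values and 339 values of named members stayed within the spread between replicates or within 1.5 times the count. Among named members the exception was Gtf2f2 (0.153 in the Cy5 over Cy3 reading). This spread was wide, and some values counted as within it changed sign or shrank. Polr1b went from 0.339 as deposited to -0.206 in the Cy5 over Cy3 reading. Gtf3a went from -0.504 to 0.177 in the channel 2 over channel 1 reading, and Ercc2 from 1.24 to 0.168 without spots beyond 5. Spot intensities were not used here, so the signal over background behind each value is unknown.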
